A study of Mus musculus with 6 samples.

Results

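The mouse genome carries a large family of genes named Zfp with a number, and the genes examined here are the protein-coding ones numbered from Zfp600 upward. The rule matched the gene name and the gene type in the table and used no measured value. It found 183 genes of the 53023 listed, with 182 distinct symbols, because Zfp935 is listed under 2 gene identifiers. RNA-seq was performed on whole two-cell embryos of the ICR strain at 28 h post-insemination (hpi), in 3 groups of 2 libraries with 5 pooled embryos per library. Non-injection embryos received no mRNA. PIASy-Mut embryos received mRNA for HA-tagged PIASy with the C335F change in the RING finger, which is described as inactive as a SUMO ligase. PIASy-WT embryos received mRNA for the HA-tagged wild-type protein. Both mRNAs were given at 100 ng/µl from 1.5 to 3 hpi, and embryos that fluoresced at 9 hpi were kept, a selection that the Non-injection embryos did not undergo. The injected protein was made from mRNA in every cell of the embryo, on top of the endogenous one. The study describes its replicates as biological, without saying whether the libraries of a group came from separate collections of embryos, so P-values measure only the spread between these libraries.

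Most proteins of this family bind DNA through an array of C2H2 zinc fingers, in which each finger contacts a few bases and the array reads a longer sequence. Many also carry a KRAB domain near the amino terminus, which recruits TRIM28 (KAP1) and with it histone deacetylases, the H3K9 methyltransferase SETDB1 and HP1 proteins. KRAB zinc finger genes arose by repeated tandem duplication, lie in clusters of close paralogues, and are best known for the silencing of retroviral elements in early embryos. PIASy is a SUMO E3 ligase, and TRIM28 is known to bind several of its partners through its own SUMO modification.

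In translated reading frames of the annotation, 176 of the 183 genes had at least 1 C2H2 finger pattern, against 3.67% of all protein-coding genes. The median number of fingers was 11 and the highest was 33. A KRAB A-like stretch, ahead of the first finger where there was one, was present in 123 genes, against 2.04% of all protein-coding genes. Among the 7 without a finger pattern, Zfp703 and Zfp750 have reading frames of 594 and 703 residues without the classical array. Others have short reading frames, such as Zfp972 with 139 residues and an identifier of Zfp935 with 150. The other identifier of Zfp935 has 8 fingers. For the short ones, an incomplete gene model and a protein without fingers were not told apart. The genes lay on 20 chromosomes, and 121 of them fell into 17 clusters, defined as at least 3 members with no gap above 1000000 bases. The largest cluster was on chromosome 4 with 17 members, followed by clusters on chromosomes 17 and 2 with 14 and 11 members.

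The libraries held between 871663 and 1363928 fragments on genes, as recovered from the deposited FPKM values. Pias4, which encodes PIASy, had an FPKM of 2.98 and 3.59 for Non-injection libraries, 862 and 611 for PIASy-Mut and 610 and 579 for PIASy-WT, so both injected groups carried the injected mRNA at a similar level. Cumulus cell markers had a summed level between 27.1 and 40.0 CPM (fragments scaled to equal library depth) over 16 genes. Of these, Inha, Foxl2, Amh and Inhba had no fragment in any library, 4 were tested, and Amhr2 fell against Non-injection, from an FPKM of 8.06 and 7.51 to 1.13 and 1.74. Of 12 two-cell markers in the table, all were detected in every group, and 2 fell in PIASy-WT against Non-injection and 3 against PIASy-Mut. Of 15 oocyte markers, 1 (Zp3) fell in both comparisons and none rose. The shares of all genes tested that fell were 5.76% and 6.01%. The sum of the Zfp600+ genes was 9638 and 9569 CPM for Non-injection libraries, 10556 and 9364 for PIASy-Mut and 9763 and 9728 for PIASy-WT. The family as a whole therefore took a similar share of each library, and the differences below are between its members. Levels here are shares of a library, so fewer cells of a type and less RNA per cell cannot be told apart.

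FPKM, which divides fragments by gene length and depth, allowed levels to be compared between genes. Over the 6 libraries, the median gene of the family had a mean FPKM of 2.41. Of the 183 genes, 46 had a mean of 10 or more and 5 of 100 or more. The highest was Zfp706, a small single-finger protein known from work on the exit of embryonic stem cells from self-renewal. It was followed by Zfp936, Zfp958, Zfp951 and Zfp655, and then by Zfp982. No fragment was seen for 13 genes in any library, and 27 of the genes not tested never exceeded 3 fragments, the limit under which a level could not be separated from 0 (counting error only). A minimum FPKM of 1 in 2 libraries was passed by 132 genes. Of these, 1 passed it through the PIASy-WT libraries alone, and 7 had both PIASy-WT libraries under it. Genes were tested with limma on log2(FPKM + 1), and a gene passed where the Benjamini-Hochberg adjusted P over all 16100 genes tested was at most 0.05 and the log2 fold change was 1 or more in size. Since 1 is added to each FPKM, changes are understated where the FPKM is low.

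PIASy-WT overexpression was accompanied by lower levels of a limited set of these genes and by higher levels of few. Against Non-injection, 14 of 132 fell and 3 rose. The share of all genes tested that fell was 5.76%, and 1.03% rose. With voom on the recovered fragments, another tool, 19 of 111 genes were lower and 8 higher, beside 18.3% and 7.36% of all genes, so the share of lower genes was not above that of the whole table in this fit. Against PIASy-Mut, 13 fell and 0 rose with limma, beside 6.01% and 0.82% of all genes. With quantile normalization the latter counts were 6 and 1, beside 3.12% and 0.758% of all genes in that fit. Voom gave 17 and 6 of 111 genes, beside 18.2% and 5.11% of all genes. At an unadjusted P under 0.05 in the limma fit, 22 genes were lower than in PIASy-Mut and 15 higher. These 37 of 132 genes stand beside 4456 of all 16100 genes, a similar share. At a log2 threshold of 2, 8 genes fell in each comparison, beside 3.81% of all genes against Non-injection and 4.06% against PIASy-Mut. The number that rose was 0, beside 0.602% and 0.516% of all genes. Altogether 15 genes fell in at least 1 of these comparisons and 12 of them in both, and the shares of all genes for these counts were not computed. In all 15 both PIASy-WT libraries were below the 4 others. This is no added support, because the genes were selected as lower in these same libraries. The comparisons share the PIASy-WT libraries, so a gene counted in both is not 2 separate observations.

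The middle of the family was close to 0. The 132 genes had a median log2 fold change of 0.06 (Non-injection as control) and -0.02 (PIASy-Mut as control), beside 0.01 and -0.03 over all genes tested, and the sign of both medians turned under some filters or scalings. The signs were evenly split, with 63 negative and 69 positive values against Non-injection. Both PIASy-WT libraries were below the 4 others in 34 of the 132 genes and above them in 32, beside 24.4% and 19.9% of all genes tested. The protein-coding genes Zfp1 to Zfp599, tested in the same fit, had 7 of 131 genes lower and 0 higher against Non-injection, 6 lower and 1 higher against PIASy-Mut, and medians of -0.08 and -0.12. The difference between both sets was not tested. Genes with a KRAB A-like stretch had 10 of 94 lower and 3 higher against Non-injection, and those without it had 4 of 38 lower and 0 higher. Against PIASy-Mut the counts were 8 of 94 and 5 of 38 lower, and the difference between the sets was not tested.

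PIASy-Mut embryos gave no call. Against Non-injection, 0 of 132 genes fell and 0 rose, beside 0.0% and 0.00621% of all genes tested, the latter being Pias4 alone. At an unadjusted P under 0.05 the limma fit listed 3 of the 132 genes as lower and 2 as higher. Beside this, 718 of all 16100 genes were under that limit in either direction. Voom gave 0 calls in the family as well. The median of the 132 genes was -0.02, and the values ran from -1.52 to 1.21.

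With 2 libraries per group the calls depended on each library. Leaving out either Non-injection library or either PIASy-WT library left 0 of the Zfp600+ genes called against Non-injection. The lower calls of the whole table were lost in these fits as well, so the loss was not particular to the family. Against PIASy-Mut the calls were also lost, in the family and whole table, without any one of these 4 libraries or PIASy-Mut 1. Without PIASy-Mut 2 both had calls in each direction. Without either PIASy-Mut library 18 genes were lower against Non-injection and 5 higher. Of all genes in these fits, 11.8% were lower in each, and 4.96% were higher without PIASy-Mut 1 and 4.71% without PIASy-Mut 2.

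**Figure D1:**
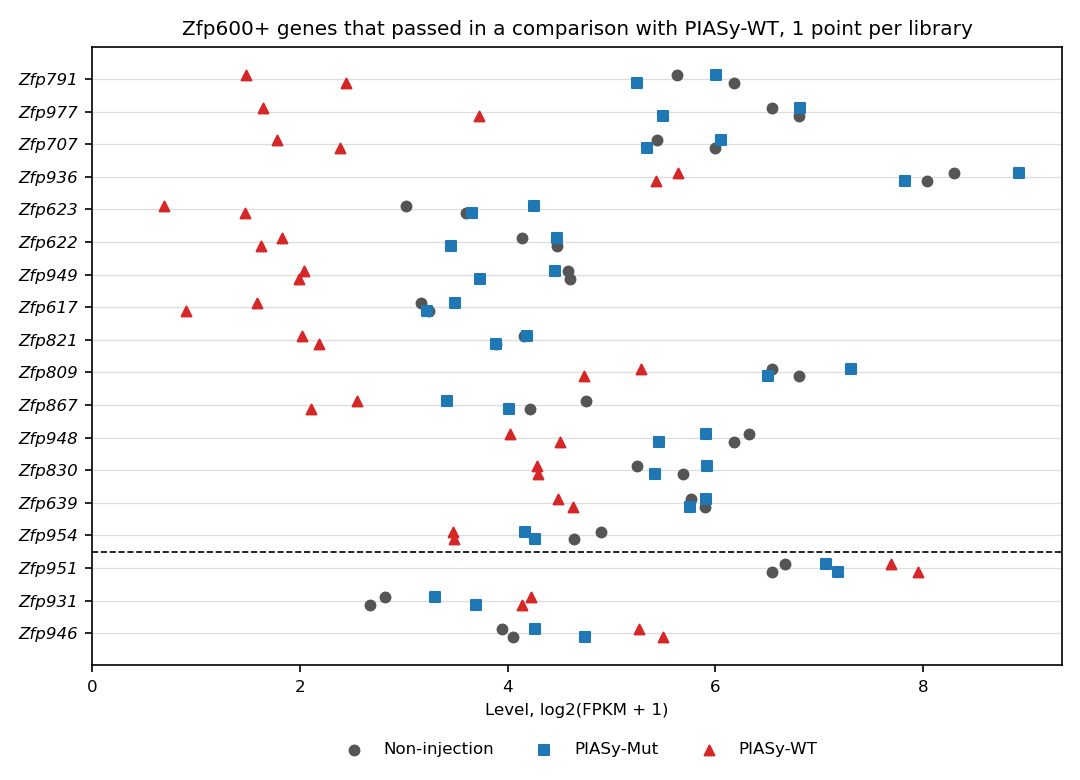
Level of the 18 Zfp600+ genes that passed in a comparison with PIASy-WT, as log2(FPKM + 1) on the x axis, with 1 point per library (grey circles Non-injection, blue squares PIASy-Mut, red triangles PIASy-WT). For the 15 genes above the dashed line both PIASy-WT libraries lie left of the 4 others, and for the 3 below it they lie to the right.

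Among the KRAB genes that fell, Zfp809 is the one with a known target, since its protein binds the primer binding site of murine leukaemia virus and related proviruses and recruits TRIM28 to them. Its FPKM was 92.4 and 111 for Non-injection libraries, 157 and 90.3 for PIASy-Mut and 38.0 and 25.6 for PIASy-WT. Against Non-injection this was a log2 fold change of -1.67 (SE 0.36, limma adjusted P = 0.0491), and PIASy-Mut gave -1.90 (adjusted P = 0.0379). All PIASy-WT values lay under the lowest of the others, but the first of these calls was close to the threshold. It passed in 5 of 16 alternatives, and the call against PIASy-Mut passed in 6 of 16. No 50-base stretch of its transcripts was shared with another gene.

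The largest falls belonged to Zfp791, Zfp977 and Zfp707, which are KRAB zinc finger genes without a function known well enough to state. Zfp791, at 85108553 to 85123095 on chromosome 8 (mm10), had an FPKM of 48.5 and 71.7 for Non-injection libraries, 63.5 and 37.0 for PIASy-Mut and 1.79 and 4.43 for PIASy-WT. Its log2 fold changes were -3.95 (adjusted P = 0.0224) and -3.67 (adjusted P = 0.0232), and its reads were not shared with any paralogue at 50 bases. Zfp707 on chromosome 15 showed nearly the same pattern, with FPKM values of 42.4, 62.9, 65.4 and 39.7 in the controls and 2.44 and 4.22 in PIASy-WT. It changed by -3.64 and -3.62 on the log2 scale (adjusted P = 0.0224 and 0.0219). Both genes thus went from a level well above the median of the family to one close to it, and both held their calls in 12 of 16 alternatives against Non-injection.

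Zfp949 and Zfp617 fell with lower starting levels. Zfp949 on chromosome 9 had an FPKM of 23.0 and 23.2 for Non-injection libraries, 20.98 and 12.3 for PIASy-Mut and 3.12 and 2.96 for PIASy-WT, with log2 fold changes of -2.58 and -2.08. Zfp617 had 8.001 and 8.48 for Non-injection libraries, 10.3 and 8.35 for PIASy-Mut and 2.00 and 0.863 for PIASy-WT, with log2 fold changes of -1.97 and -2.12. Zfp617 is uncertain, because 42.2% of its 50-base stretches also occur in other genes and its exons overlap those of a neighbour on 3.44% of their length. Zfp948 on chromosome 17 fell from 79.2 and 71.4 in Non-injection to 15.3 and 21.7 in PIASy-WT, with 59.3 and 43.0 in PIASy-Mut. Zfp948, Zfp867 and Zfp954 were lowest in PIASy-WT and intermediate in PIASy-Mut, and of these Zfp948 and Zfp867 are named after their values were seen. Zfp867 and Zfp954 passed against Non-injection alone, with log2 fold changes of -2.16 and -1.29, beside -1.38 and -0.74 against PIASy-Mut (adjusted P = 0.0795 and 0.132).

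Of the 15 genes that fell, 5 have no KRAB A-like stretch, and several of these are not transcriptional repressors of the KRAB type. Zfp622 is a factor of 60S ribosome biogenesis in the cytoplasm. Its FPKM was 16.7 and 21.3 for Non-injection libraries, 21.2 and 9.98 for PIASy-Mut and 2.54 and 2.07 for PIASy-WT, with log2 fold changes of -2.59 (adjusted P = 0.0318) and -2.24 (adjusted P = 0.0373). Zfp830 is a nuclear protein of the pre-mRNA splicing machinery that is required in the early embryo. It had 36.9 and 50.6 for Non-injection libraries, 59.7 and 41.8 for PIASy-Mut and 18.5 and 18.6 for PIASy-WT, and it passed against PIASy-Mut (-1.38, adjusted P = 0.0493) and not against Non-injection (-1.18, adjusted P = 0.0677). The former call held in 3 of 16 alternatives.

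Zfp639, whose human counterpart is known from a region amplified in squamous carcinomas, had close replicates. Its FPKM was 53.4 and 58.6 for Non-injection libraries, 59.3 and 53.0 for PIASy-Mut and 21.4 and 23.8 for PIASy-WT, with log2 fold changes of -1.27 and -1.28. The calls of Zfp639 held in 8 of 16 alternatives against Non-injection and in 5 of 16 against PIASy-Mut. Zfp830 and Zfp639 were named after their values were seen. Zfp821 had 16.9 and 13.8, 17.2 and 13.8, and 3.06 and 3.53 in the same order, with -1.92 and -1.93. In Zfp639 and Zfp821 the PIASy-Mut libraries lay at the level of the Non-injection libraries, and the drop in PIASy-WT was larger than the gap between replicates of any group. Zfp623, which has 13 fingers and no KRAB A-like stretch, rested on few fragments in PIASy-WT, 2 and 5, against 24 to 46 in the 4 others.

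The 3 genes that rose have a KRAB A-like stretch, and all rose against Non-injection alone. Zfp951 on chromosome 5 was the most abundant of them, with an FPKM of 101 and 92.4 for Non-injection libraries, 133 and 145 for PIASy-Mut and 206 and 248 for PIASy-WT. Against Non-injection the log2 fold change reached 1.22 (adjusted P = 0.0393), while PIASy-Mut gave 0.70 (adjusted P = 0.114). Zfp946 had 14.4 and 15.6, 18.2 and 25.9, and 37.5 and 44.2, with 1.38 and 0.87. Zfp931 had 6.06 and 5.38, 8.85 and 11.98, and 17.7 and 16.7, with 1.44 and 0.69. In all 3 the groups were ordered Non-injection, PIASy-Mut, PIASy-WT without overlap, and PIASy-Mut did not pass against Non-injection. These calls were absent with a replicate number in the model, where 0 genes rose.

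The most abundant members were mixed. Zfp706 had an FPKM of 198 and 194 for Non-injection libraries, 171 and 275 for PIASy-Mut and 409 and 471 for PIASy-WT, above the 4 others. Its log2 fold changes of 1.16 (SE 0.29, adjusted P = 0.0683) and 1.02 (adjusted P = 0.0910) did not pass. Zfp958 lay on the other side, with 180 and 238, 271 and 160, and 92.9 and 73.6, and also did not pass (-1.32 in both comparisons, adjusted P = 0.0697 and 0.0692). Zfp655 was level across all libraries, between 106 and 131, with log2 fold changes of -0.11 and 0.04. Zfp932, named after its values were seen, had 50.6 and 33.8, 38.5 and 45.2, and 94.8 and 99.2 (adjusted P = 0.0573 and 0.0590), and shares 37.0% of its 50-base stretches with other genes.

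**Figure D2:**
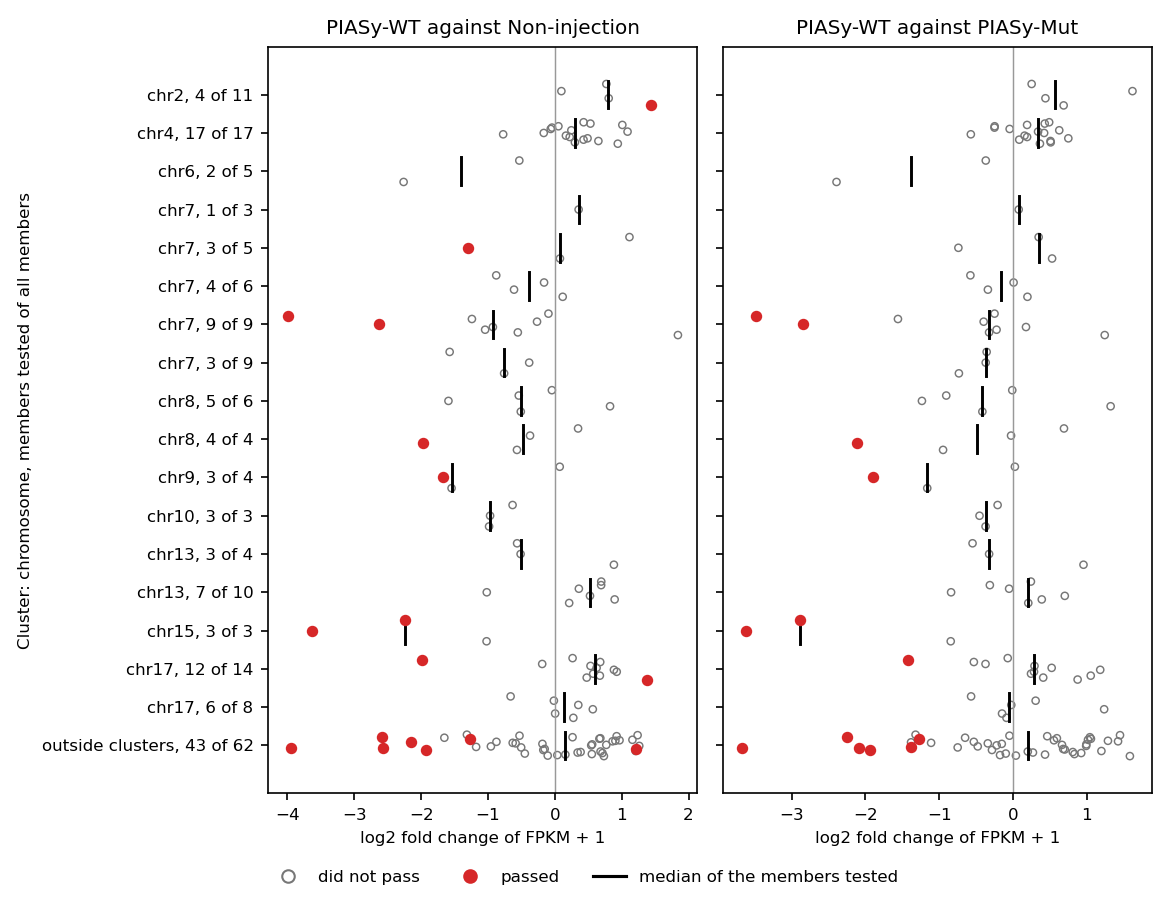
Log2 fold change of FPKM + 1 on the x axis for each tested Zfp600+ gene, in rows by chromosome cluster (labelled with the members tested of all members) and a last row for genes outside clusters, for PIASy-WT against Non-injection (left) and against PIASy-Mut (right). Red points passed, open points did not, and black bars are medians, which lie at 0.30 and 0.34 in the chromosome 4 cluster and at -2.23 and -2.88 in the chromosome 15 cluster.

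The genes that fell were spread over 7 chromosomes, and 8 of the 15 lay in 6 of the clusters. In the clusters 8 of 89 genes tested fell against Non-injection, and outside them 6 of 43, beside 5.76% of all genes tested. The difference between the sets was not tested. Each of these 6 clusters also held tested genes that did not pass.

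Among these 6 clusters was that of 9 genes on chromosome 7, from 41633203 to 43618285 (mm10). All 9 were tested, and Zfp977 and Zfp936 fell in both comparisons. Zfp936 had an FPKM of 314 and 262 for Non-injection libraries, 487 and 226 for PIASy-Mut and 49.1 and 42.0 for PIASy-WT, with log2 fold changes of -2.63 (adjusted P = 0.0292) and -2.84 (adjusted P = 0.0240). Zfp977 had 92.6 and 111, 112 and 44.3, and 2.12 and 12.2, with -3.996 (SE 0.74, adjusted P = 0.0383) and -3.48 (adjusted P = 0.0490). The PIASy-WT libraries differed more for Zfp977 than for Zfp936, and its call against PIASy-Mut held in 3 of 16 alternatives. Zfp936 was by far the most abundant gene of the cluster, and the cluster as a whole went from between 921 and 1906 CPM in the 4 controls to 279 and 258 in PIASy-WT.

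Their next paralogues did not pass. Zfp976 was covered by 13 and 9 fragments without injection, by 23 and 5 with PIASy-Mut and by 1 in each PIASy-WT library. Counted against the limit of 3 fragments per library, its PIASy-WT level was at least 3.59-fold lower against the mean of Non-injection and at least 5.75-fold lower against that of PIASy-Mut. The latter bound rests on PIASy-Mut 1 and is at least 2.35-fold against PIASy-Mut 2 alone. The fit gave adjusted P = 0.194 and 0.126. Zfp975, between Zfp976 and Zfp936 on the chromosome, went from FPKM values of 4.27 and 3.17 without injection to 2.88 and 2.93 with PIASy-WT, with log2 fold changes of -0.27 and -0.40. Zfp819 at the far end of the cluster, named after its values were seen, did not pass either, with 0.892 and 1.79, 1.57 and 3.72, and 9.79 and 5.29 (1.84, adjusted P = 0.0802, and 1.24, adjusted P = 0.179). Of the 9 genes, 8 were negative with Non-injection as control and 7 with PIASy-Mut, with medians of -0.93 and -0.32. Without PIASy-Mut 1 the median against PIASy-Mut was -0.59, and at a minimum FPKM of 5, with 4 genes tested, it was -1.55. Gm21028, another protein-coding gene in the interval, also fell in both comparisons, but on few fragments, with 4 and 5 for Non-injection libraries, 10 and 1 for PIASy-Mut and 0 in both PIASy-WT libraries.

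The start regions of these paralogues are printed to show how alike these neighbours are. Whether their changes differ from each other was not tested. The windows are from RefSeq (GRCm38.p6, equal to mm10) and run from 250 bases before to 50 after the annotated start, 5′ to 3′ on the strand of the gene. Capitals mark ATTGG or its reverse complement CCAAT, the core of a CCAAT box. This group of 4 was chosen after its values were seen. The Zfp977 window is chr7:42592496-42592795 (minus strand), that of Zfp936 chr7:43177340-43177639 (plus strand, inside the longer gene of the table), that of Zfp976 chr7:42642555-42642854 (minus strand) and that of Zfp975 chr7:42692669-42692968 (minus strand).
Zfp977: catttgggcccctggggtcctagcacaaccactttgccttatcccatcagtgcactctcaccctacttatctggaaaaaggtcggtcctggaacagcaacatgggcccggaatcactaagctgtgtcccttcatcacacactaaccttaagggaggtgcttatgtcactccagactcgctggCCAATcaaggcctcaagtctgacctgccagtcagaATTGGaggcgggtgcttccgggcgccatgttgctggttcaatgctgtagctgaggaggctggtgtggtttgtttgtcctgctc
Zfp936: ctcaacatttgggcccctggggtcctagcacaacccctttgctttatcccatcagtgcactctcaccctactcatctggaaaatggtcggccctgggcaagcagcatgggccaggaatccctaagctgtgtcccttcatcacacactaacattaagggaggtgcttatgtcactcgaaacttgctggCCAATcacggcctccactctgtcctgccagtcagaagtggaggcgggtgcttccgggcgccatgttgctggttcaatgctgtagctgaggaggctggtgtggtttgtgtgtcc
Zfp976: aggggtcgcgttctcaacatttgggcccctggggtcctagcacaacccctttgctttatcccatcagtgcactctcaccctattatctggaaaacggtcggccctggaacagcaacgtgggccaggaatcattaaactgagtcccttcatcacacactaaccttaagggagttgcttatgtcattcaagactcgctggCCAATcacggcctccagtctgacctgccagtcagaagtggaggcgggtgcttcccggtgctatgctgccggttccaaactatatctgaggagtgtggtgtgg
Zfp975: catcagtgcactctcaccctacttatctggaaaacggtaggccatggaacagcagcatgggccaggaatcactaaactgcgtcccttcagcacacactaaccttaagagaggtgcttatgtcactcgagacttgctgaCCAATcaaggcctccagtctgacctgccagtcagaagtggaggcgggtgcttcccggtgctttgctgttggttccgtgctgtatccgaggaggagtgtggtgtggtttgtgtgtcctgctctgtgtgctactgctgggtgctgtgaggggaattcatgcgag
Between Zfp977, which changed by -3.996, and Zfp975, which did not pass, 89.5% of 256 aligned positions were identical. Between Zfp977 and Zfp936, which both fell, the share was 92.9% of 295, and over the other pairs it ran from 88.4% to 90.8%. Each window held 1 match to the CCAAT letters, apart from that of Zfp977, which held 2. The encoded proteins were 78.5% to 89.7% identical, whereas the protein of Zfp819 was 44.5% identical to that of Zfp977. Zfp936 and Zfp977 share 15.6% and 8.47% of their 50-base stretches with other genes, and Zfp975 and Zfp976 share 30.4% and 20.4%, so some reads could not be placed, and only uniquely placed reads were counted. A match is a description of letters and not a binding site.

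The same letters were searched in the 154 members with a RefSeq window. ATTGG, on either strand, was present in 58.4% of them, against 37.9% of all 27025 windows. TATAAA, on either strand, was present in 2.60% against 14.2%, and GGATTA, a homeobox-type core, in 7.14% against 7.16%. The median number of CpG was 10 against 7. These shares describe the family and were not set against the response.

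The cluster on chromosome 15 was small, and 2 of its 3 genes fell in both comparisons. Zfp623 and Zfp707 lie next to each other from 75940952, and Zfp647 lies towards the end of the cluster at 76918010. Together they had 155 and 246 CPM for Non-injection libraries, 261 and 161 for PIASy-Mut and 12.8 and 25.2 for PIASy-WT. Zfp647, named after its values were seen, did not pass (-1.02 and -0.84), and its PIASy-WT libraries overlapped the others. Of the other protein-coding genes tested within the same interval, 21 of 27 had a negative value against Non-injection with a median of -0.93, and 20 of 27 against PIASy-Mut with a median of -0.87. Of these 27, 2 fell against Non-injection (Parp10 and Rpl8) and 2 against PIASy-Mut (Parp10 and Kifc2), beside 5.76% and 6.01% of all genes tested. On chromosome 9, Zfp809 lies near Zfp810 (-1.54 and -1.16, not passed, named after its values were seen). Of 6 other protein-coding genes tested in that interval, 2 fell in both comparisons, beside the same shares of all genes. They were Zfp599, outside the numbering rule (-2.53 and -2.59), and Pigyl (-1.16 and -1.26). In each comparison 3 of the 6 values were negative and 3 positive.

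**Figure D3:**
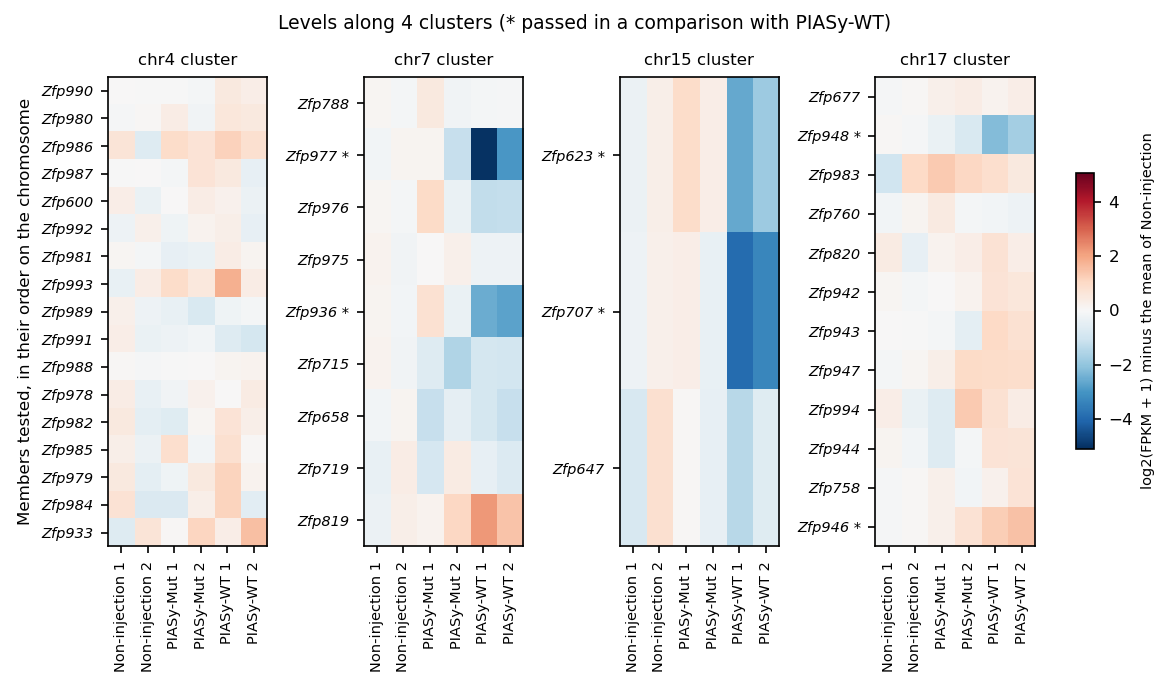
Tested Zfp600+ genes in their order along 4 clusters (rows) in each of the 6 libraries (columns), coloured by log2(FPKM + 1) minus the mean of the Non-injection libraries, blue for lower and red for higher, and asterisks mark genes that passed. The darkest blue cells are those of Zfp977 and Zfp707 in the PIASy-WT columns, and the chromosome 4 panel holds no asterisk.

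The chromosome 4 cluster, from 145510759 to 147848366, held no Zfp600+ gene that passed, although Gm21411, another protein-coding gene of the interval, fell against Non-injection (-1.53). It holds Zfp600, Zfp933 and 15 of the genes from Zfp978 to Zfp993, recent duplicates known from work on the silencing of endogenous retroviruses, and every one of its 17 genes has a KRAB A-like stretch. All 17 were tested and 0 passed in either comparison with limma. Of all genes tested, 5.76% and 6.01% fell and 1.03% and 0.82% rose, so 0 among 17 genes is close to these shares. Values were positive for 13 of 17 in each comparison, with medians of 0.30 and 0.34 and a range from -0.77 to 1.09 against Non-injection. Its summed level was 805 and 493 CPM for Non-injection libraries, 564 and 724 for PIASy-Mut and 1081 and 708 for PIASy-WT, so the groups overlapped. The most abundant gene, Zfp982, had an FPKM of 121 and 60.02, 54.7 and 92.5, and 137 and 105, and Zfp979 had 52.3 and 25.8, 31.8 and 52.2, and 82.4 and 41.3. With median-of-ratios or quantile scaling 14 of them were positive against Non-injection, and between 10 and 15 when 1 library was left out. The median against Non-injection was 0.13 without Non-injection 2 and 0.15 without PIASy-WT 1. That against PIASy-Mut was 0.093 without PIASy-WT 1, 0.15 without PIASy-Mut 1 and 0.20 without PIASy-Mut 2, and 9 of 16 values were positive without PIASy-Mut 1. Reads of these genes are hard to place, since they share a median of 67.9% of their 50-base stretches with other genes, and 10 of the 17 share at least 50%.

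The cluster on chromosome 17 from 21383748 to 22867134 held more distinct genes, with a median of 4.51% shared. Of 12 tested, 10 were positive with Non-injection as control and 8 with PIASy-Mut, with medians of 0.60 and 0.29. Without PIASy-Mut 1 the values against PIASy-Mut were 6 positive and 6 negative, with a median of 0.087. Zfp946 rose and Zfp948 fell against Non-injection within the same cluster, and the neighbouring Zfp229, outside the numbering rule, fell in both comparisons (-1.85 and -2.09). The summed level was 1121 and 983 CPM for Non-injection libraries, 1015 and 1075 for PIASy-Mut and 1409 and 1383 for PIASy-WT, so both PIASy-WT libraries were above the 4 others. Zfp942, the gene with the most fragments, had an FPKM of 42.0 and 36.0, 39.2 and 44.5, and 62.8 and 58.2 (0.63 and 0.52, not passed). On chromosome 2 only 4 of 11 genes were tested, all with positive values in both comparisons, and Zfp931 was the one that rose. When 1 library was left out, 3 or 4 of them were positive in each comparison. These 4 genes share a median of 50.4% of their 50-base stretches with other genes, and 2 of them share at least 50%. The 3 genes of the chromosome 10 cluster all had negative values and none passed, with Zfp873 at -0.97 and -0.45. Against PIASy-Mut 2 of the 3 were negative without PIASy-Mut 1 or without PIASy-WT 2, and Zfp873 was -0.10 without PIASy-Mut 1 and -0.80 without PIASy-Mut 2.

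In the remaining clusters the gene with the most fragments did not pass, apart from Zfp954 on chromosome 7. Zfp930 on chromosome 8 had values of -0.04 and -0.01, Zfp961 on chromosome 8 had -0.57 and -0.95, and Zfp808 and Zfp738 on chromosome 13 had -0.56 and -0.55 and 0.21 and 0.21. Zfp808 against Non-injection was -0.047 without Non-injection 1 and -1.08 without Non-injection 2, and Zfp738 was 0.017 and 0.0079 without PIASy-WT 1 and 0.41 and 0.40 without PIASy-WT 2. Zfp871 on chromosome 17 had -0.66 and -0.57, Zfp850 and Zfp689 on chromosome 7 had 0.12 and 0.19 and -0.76 and -0.73, and Zfp865 on chromosome 7 was not tested. Zfp775 on chromosome 6 had 6.39 and 8.75, 13.7 and 4.87, and 2.13 and 0 (-2.26 and -2.39, adjusted P = 0.101 and 0.0918). Its exons overlap those of 3 other genes, Gm38804 on the opposite strand and Gm44965 and Gm45021 on the same strand, on 15.5% of their length, so its level is uncertain.

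Other members far from 0 did not pass either, and are named after their values were seen. Zfp800 had FPKM values of 12.1 and 11.7, 4.61 and 6.41, and 4.06 and 2.34, so the PIASy-Mut libraries lay near the PIASy-WT libraries (-1.65, adjusted P = 0.0522, and -0.65, adjusted P = 0.308). Zfp869 had 10.1 and 15.6, 9.14 and 10.1, and 1.90 and 6.02, with PIASy-WT libraries that lay further apart as a ratio than the other pairs (-1.59 and -1.23). Zfp608, a large regulator gene at low level, had 0.480 and 0.579, 0.951 and 1.13, and 1.73 and 2.28 (0.97 and 0.55), from 4 to 16 fragments per library. Zfp972 rested on at most 4 fragments per library, and its value of 1.62 against PIASy-Mut did not pass (adjusted P = 0.125).

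The partners of the KRAB domain were examined from a list of 30 genes, of which 29 were tested. Against Non-injection 1 fell and 0 rose, beside 5.76% and 1.03% of all genes tested, and against PIASy-Mut 3 fell and 0 rose, beside 6.01% and 0.82%. The medians of the list were -0.49 and -0.47. Hdac1, a histone deacetylase of the NuRD complex, had an FPKM of 28.3 and 26.4 for Non-injection libraries, 31.2 and 24.3 for PIASy-Mut and 8.76 and 9.34 for PIASy-WT, and fell in both comparisons (-1.50 and -1.51). Trim28, the corepressor itself, had 9.17 and 8.93, 15.8 and 10.2, and 3.81 and 3.56, and fell against PIASy-Mut (-1.55) and did not pass against Non-injection (-1.10). Mta2 of the same complex also fell against PIASy-Mut (-2.20). Setdb1, which makes the H3K9me3 mark at KRAB targets, had -0.54 and -0.65 and did not pass, and Hdac2 had 0.15 in both. Cbx1, which encodes the HP1 beta protein, had 12.4 and 13.7, 12.02 and 21.5, and 43.4 and 32.0. Both PIASy-WT libraries were the highest, and neither comparison passed (1.45, adjusted P = 0.0640, and 1.16, adjusted P = 0.1004). The H3K9 methyltransferase gene Suv39h2 was also above the other libraries in PIASy-WT without passing (1.02 and 0.89). Suv39h1, which encodes a related methyltransferase, had 9.04 and 8.39, 12.3 and 7.62, and 3.29 and 2.97, with both PIASy-WT libraries the lowest, and did not pass either (-1.23, adjusted P = 0.0852, and -1.38, adjusted P = 0.0683).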

How the data were processed

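RNA-seq of 6 libraries was analysed, mapped to groups by their labels. The authors amplified cDNA with SMART-Seq v4, which does not mark strand, trimmed reads with Trim Galore, aligned them to mm10 with STAR and gave uniquely mapped reads to genes with featureCounts. The table they deposited holds FPKM values. The annotation release and strand setting are not given in the sources used here. The study tested counts, and the deposited values are FPKM, so limma 3.58.1 in R 4.3.3 (lmFit, eBayes with trend; 3 residual and 3.12 prior degrees of freedom) was used on log2(FPKM + 1) over all 6 libraries and the 16100 genes with FPKM of at least 1 in 2 libraries. FPKM multiplied by gene length gave whole fragments for 100% of values, within 0.001. An exact permutation test of 2 against 2 libraries cannot go below 0.333 and was not used. Replicates differed by more than sampling noise, with a chi-square per degree of freedom of 3.90 for Non-injection, 14.3 for PIASy-Mut and 4.10 for PIASy-WT.

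The gene set, the lists and the tests were chosen with earlier results of these data known. Genes were named by rule: the 10 largest falls and up to 8 rises among those that passed, ranked by the mean of the fold changes of PIASy-WT against both other groups, the 6 highest levels, the gene with the most fragments in each cluster, Zfp706, and Pias4. Other Zfp600+ genes are marked as named after their values were seen, and the genes outside the set (cluster neighbours, markers and KRAB partners) were also picked after their values were seen. Reading frames, exon overlap and shared 50-base stretches came from GENCODE M21 (GRCm38), in which 183 of 183 genes matched, and promoter windows from RefSeq. The fit was tested on simulated data. Alternatives were other pseudocounts, filters, scalings, eBayes without trend, voom on fragments (at least 10), a replicate block, fits on 4 libraries and leaving out each library.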

Additional observations from a re-analysis of the deposited data

How the results depend on the processing

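The number of Zfp600+ genes lower in PIASy-WT against Non-injection was 14, and it was 8 at a log2 fold change of 2, 3 with eBayes without trend, 3 without a filter on low values and 9 with quantile normalization, beside 3.81%, 1.59%, 0.553% and 4.13% of all genes in these fits. The number higher, 3, became 0 at a log2 fold change of 2, without trend and without a filter, beside 0.602%, 0.366% and 0.0575% of all genes. It was 5 at a minimum FPKM of 5 or with only the 4 libraries compared, beside 3.92% and 3.89% of all genes. With voom it was 8, beside 7.36%. Against PIASy-Mut the 13 lower genes became 8 at a log2 fold change of 2, 7 without trend, 8 with median-of-ratios scaling, 3 without a filter, 0 with only the 4 libraries compared and 6 with quantile normalization, beside 4.06%, 2.88%, 3.91%, 0.873%, 0.0% and 3.12% of all genes. The number higher, 0, became 3 at a minimum FPKM of 5, 1 with quantile normalization and 6 with voom, beside 2.44%, 0.758% and 5.11%. Without a filter 27826 genes were tested instead of 16100, and with the 4 libraries of PIASy-WT and PIASy-Mut alone 0 genes of the whole table were called. Leaving out 1 library gave 0 to 18 lower and 0 to 5 higher against Non-injection, and 0 to 17 lower and 0 to 7 higher against PIASy-Mut. PIASy-Mut against Non-injection stayed at 0 under the alternatives tried.

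The median against Non-injection, 0.06, was -0.043 at a minimum FPKM of 5, 0.13 with quantile normalization and 0.14 with voom, and ran from -0.084 to 0.17 when 1 library was left out. The median against PIASy-Mut, -0.02, was -0.12 at a minimum FPKM of 5, 0.063 with median-of-ratios scaling, 0.027 without a filter and 0.16 with quantile normalization, and ran from -0.16 to 0.12 when 1 library was left out. The number of clusters was also 17 at gaps of 500000 and 2000000 bases, with 111 and 127 members in them instead of 121. The members of the clusters were therefore not the same at each gap. Zfp655 against Non-injection turned to 0.14 with quantile normalization. Zfp930 turned to 0.015 with median-of-ratios scaling and 0.25 with quantile normalization against Non-injection, and to 0.10 and 0.35 against PIASy-Mut. When 1 library was left out, Zfp655 against PIASy-Mut ran from -0.023 to 0.10, Zfp982 against Non-injection from -0.011 to 0.99, Zfp871 against PIASy-Mut from -1.50 to 0.36, Zfp850 against Non-injection from -0.25 to 0.48, and Zfp930 from -0.33 to 0.24 (Non-injection) and from -0.21 to 0.19 (PIASy-Mut). None of these genes passed in any of these settings. Over the named genes, 894 values kept their direction and side of the threshold, 230 lost a call, 35 gained one and 13 changed sign. The causes were not tested.

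With a replicate block, which takes the shared replicate number as a term, 8 genes were lower and 0 higher against Non-injection and 9 lower against PIASy-Mut, beside 4.47%, 0.553% and 4.96% of all genes in this fit. The labels do not say that a number marks a shared collection, and the deviations of same-numbered libraries correlated at 0.00368, 0.0851 and 0.0637, so the numbers were not taken as pairs.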
